A study of Mus musculus with 7 samples.

Results

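The interferon regulatory factors are a family of transcription factors that share a DNA-binding domain with a repeated tryptophan motif and bind interferon-stimulated response elements. The 8 members described here, Irf1, Irf2, Irf3, Irf4, Irf5, Irf7, Irf8 and Irf9, were taken by symbol from a table of 25571 genes. All 8 had a row, and all 8 were among the 15822 genes that passed the filter on low counts.

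RNA was sequenced from CD11b+ tumor-associated macrophages sorted from T387 glioblastoma grown in the brains of NSG mice, which lack T, B and NK cells and keep myeloid cells. All mice of both groups carried the human T387 graft. The treated group (4 samples) received Pracinostat, an inhibitor of zinc-dependent histone deacetylases, by gavage at 30 mg/kg, with 4 doses each week over 3 weeks from day 7 after implantation (the labels also give 3 mg/kg for the prepared solution). The control group (3 samples, DMSO) received the solvent of DMSO, PEG300, Tween-80 and PBS. The labels call the samples biological replicates and do not tie them to single animals or pools, so the p-values measure the spread between these samples.

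The members fall into 3 roles. IRF3, IRF7 and IRF5 lie latent in the cytoplasm until kinases downstream of nucleic acid sensors or Toll-like receptors phosphorylate them, and they then induce type I interferon and, for IRF5, inflammatory cytokines. IRF9 is the DNA-binding part of the ISGF3 complex, which turns on interferon-stimulated genes, IRF1 is itself induced by interferon gamma and NF-kappaB, and IRF2 binds the same elements as IRF1 and can oppose it. IRF8 and IRF4 bind DNA weakly alone and act with PU.1, encoded by Spi1. IRF8 is needed for microglia and monocyte development, and IRF4 is linked to alternative macrophage activation and to dendritic cells.

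The promoters of Irf1 and Irf2 are shown first. The ratio of this pair did not overlap between the groups, but it did not pass its test (exact permutation adjusted p = 0.171). Each line gives the 250 bases before the most upstream RefSeq start of the gene, 5′ to 3′, from build GRCm38.p6, which is older than the build named for the counts (GRCm39). Irf1 is at chr11:53769764-53770013 and Irf2 at chr8:46739495-46739744, both on the plus strand. Capitals mark matches to TTCNNNGAA (the gamma-activated site), GAAA followed after any 2 bases by GAAA (the core of the response element bound by the family), GGAA followed after any 2 bases by GAAA (the composite element of PU.1 with IRF4 or IRF8) and the NF-kappaB consensus, all searched on both strands.
Irf1: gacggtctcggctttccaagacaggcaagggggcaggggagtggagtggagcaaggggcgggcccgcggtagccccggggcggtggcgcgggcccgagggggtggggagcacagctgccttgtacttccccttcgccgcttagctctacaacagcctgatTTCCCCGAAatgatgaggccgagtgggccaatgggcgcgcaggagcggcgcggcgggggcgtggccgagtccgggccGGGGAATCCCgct
Irf2: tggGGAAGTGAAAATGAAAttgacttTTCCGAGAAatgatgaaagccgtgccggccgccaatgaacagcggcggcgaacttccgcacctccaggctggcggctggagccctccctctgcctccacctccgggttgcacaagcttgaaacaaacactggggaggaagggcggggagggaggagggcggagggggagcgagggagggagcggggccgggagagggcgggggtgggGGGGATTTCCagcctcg

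In Irf1 the capitals are a gamma-activated site match, TTCCCCGAA, from 90 to 82 bases before the start, and an NF-kappaB match, GGGGAATCCC, from 13 to 4 bases before it. In Irf2 they are a gamma-activated site match, TTCCGAGAA, from 224 to 216 bases before the start, an NF-kappaB match, GGGGATTTCC, from 17 to 8 bases before it, and 2 overlapping matches at the far end, GGAAGTGAAA and GAAAATGAAA. Among 27025 promoters of this length the gamma-activated site pattern was present in 7.14%, the response element core in 3.05%, the composite element in 2.38% and the NF-kappaB consensus in 3.74%. Of the other members only Irf8 held a match, with 2 gamma-activated site patterns, TTCTCGGAA from 171 to 163 bases and TTCAGAGAA from 153 to 145 bases before its start. Irf3, Irf4, Irf5, Irf7 and Irf9 held none of the 4 patterns in this window. These matches are letters in a window and were not tested as binding sites.

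The libraries held 10142753 to 16950597 counts, with 16319 to 19244 genes detected. Itgam, which encodes the sorted CD11b chain, stood at 1318 to 2580 CPM (counts scaled to library size by the TMM method), and the macrophage receptor gene Csf1r at 1741 to 3004 CPM. Several libraries stood apart in their markers. In Pracinostat replicate 3 the summed monocyte-derived macrophage markers were the lowest of all at 2366 CPM, the other 6 libraries lying between 4770 and 10353 CPM, and the summed microglia markers were the highest at 7676 CPM, the others lying between 3996 and 5341 CPM. Endothelial and mural markers summed to 102.1 CPM in Pracinostat replicate 4 and 271.8 to 422.5 CPM elsewhere, and oligodendrocyte markers to 1053 CPM in Pracinostat replicate 1 and 192.8 to 364.7 CPM elsewhere. The collagen gene Col1a1 reached 702 CPM in DMSO replicate 2 and 440 CPM in Pracinostat replicate 1, and was between 11.7 and 32.2 CPM elsewhere. In bulk RNA, fewer cells of a type and less RNA per cell cannot be told apart.

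No member passed the test between the groups. By edgeR's quasi-likelihood test 0 of 8 members had an adjusted p under 0.05, as did 0% of all genes tested, and DESeq2 (0.171% of all genes called) and limma-voom (0%) also called 0 of 8. At an unadjusted p under 0.05 there was 1 member, Irf1, against 4.18% of all genes (2.81% higher and 1.37% lower). Irf1 was also the only member whose groups did not overlap. Each of its 4 Pracinostat values exceeded every DMSO value, and 3.51% of all genes were separated in that direction (6.1% in either). Of the 8 members 5 had a positive and 3 a negative log2 fold change (Pracinostat minus DMSO), with a median of 0.04, and over all genes 52.3% were positive with a median of 0.02.

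The family is first described by level. Divided by the length of each gene's merged exons (GENCODE M21, GRCm38), Irf5 stood highest in every library, at 76.9 ± 5.29 CPM per kb (SD, n = 3) with DMSO and 79.9 ± 9.48 CPM per kb (SD, n = 4) with Pracinostat. That placed it above 96.9% of the 14248 tested genes with a length in the DMSO group. Irf7, Irf8 and Irf1 followed with DMSO means of 47.3, 46.1 and 32.8 CPM per kb. Their order changed between libraries, Irf7 exceeding Irf8 in 3 of 7 and Irf8 exceeding Irf1 in 5 of 7. Irf7 and Irf8 thus did not differ beyond their spread. With DMSO alone, Irf8 lay above Irf1 without overlap, at 42.8 to 49.1 against 31.9 to 34.2 CPM per kb. Irf1 was above Irf8 in Pracinostat replicates 1 and 2.

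Irf2 and Irf9 formed the next pair at 17.5 and 15.6 CPM per kb with DMSO, Irf2 being higher in 5 of 7 libraries. Irf3 was at 6.83 CPM per kb and Irf4 lowest in every library at 4 CPM per kb, near the middle of all genes (above 49.3% of them). Irf1 exceeded Irf2, and Irf9 exceeded Irf3, in 7 of 7 libraries with no overlap of their ranges. With Pracinostat the order of the means was the same except among Irf8, Irf1 and Irf7, at 51.7, 48.7 and 47 CPM per kb. Irf1 stood above 91.3% of genes with DMSO and above 94.6% with Pracinostat. Exon lengths came from an older build than the counts, and isoform use can shift a level per length.

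**Figure D1:**
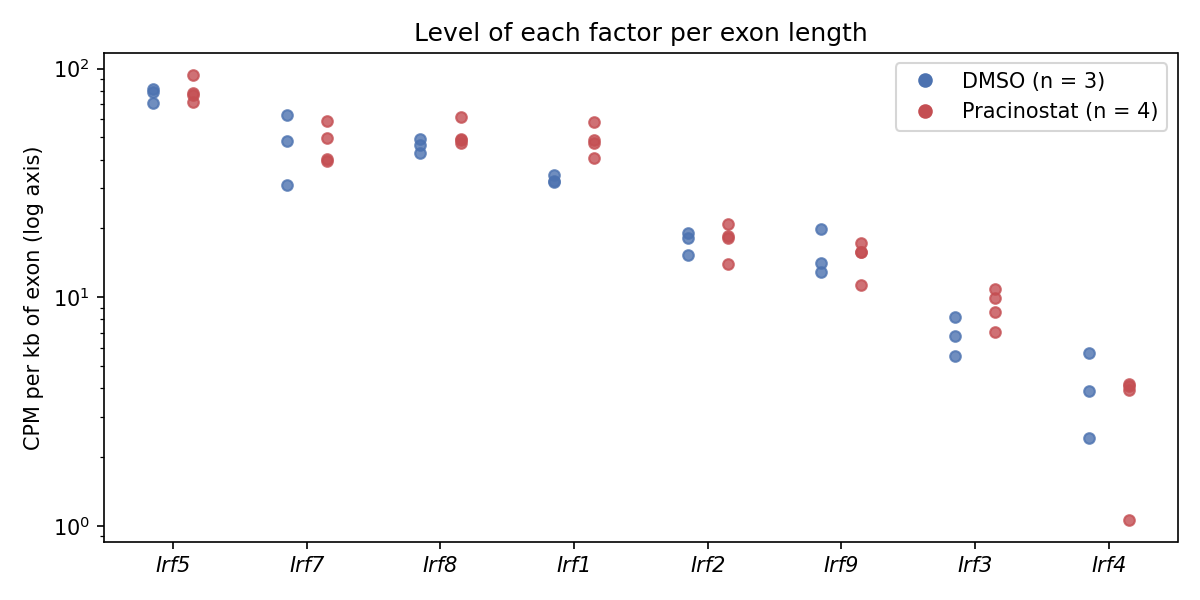
Level of each factor in CPM per kb of merged exon (log axis), ordered by the DMSO mean, with 1 point per library (3 DMSO, 4 Pracinostat). Irf5 is highest and Irf4 lowest in every library, and the order of Irf7, Irf8 and Irf1 changes between libraries.

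The first role is that of the latent factors. Irf3, the factor activated by TBK1, stood at 28.2, 23.2 and 19.1 CPM in DMSO replicates 1 to 3, and at 24.3, 34.2, 29.7 and 37.3 CPM in Pracinostat replicates 1 to 4. The 2 highest values were Pracinostat libraries and the 2 lowest DMSO libraries, but the groups overlapped. Its log2 fold change was 0.42 ± 0.26 (SE), a fold of 1.33 with a 95% interval from 0.904 to 1.97 (edgeR unadjusted p = 0.135, adjusted p = 1.00). Without DMSO replicate 1 its groups no longer overlapped, where 8.37% of all genes were separated in that direction, and likewise without Pracinostat replicate 1, where 5.75% were. No fit called it. Its opposite-strand neighbour Bcl2l12, whose reads could be shared if strand was not used in counting, was at 2.96 to 9.54 CPM.

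Irf7, the amplifier of type I interferon production, stood at 182.9, 236.4 and 116.3 CPM with DMSO and at 222.6, 148.2, 187.4 and 152 CPM with Pracinostat. The lowest and the highest library were both DMSO, and the group means were 178.5 ± 60.2 CPM (SD, n = 3) and 177.6 ± 34.8 CPM (SD, n = 4). Irf7 thus had a log2 fold change of -0.01 ± 0.23 (SE), with an interval from 0.711 to 1.39 as a fold. The opposite-strand gene Phrf1, which overlaps Irf7, was at 127.9 to 183.6 CPM, within the range of Irf7 itself, so Irf7 is uncertain if strand was not used in counting. Its sign turned in 7 of 17 alternative analyses, as is given with the processing alternatives.

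Irf5, which drives inflammatory cytokine genes downstream of MyD88, stood at 235.5, 228.5 and 206.1 CPM with DMSO and at 226.6, 271.6, 207.7 and 222.5 CPM with Pracinostat. All but Pracinostat replicate 2 lay in a narrow band of 206.1 to 235.5 CPM. For Irf5 the log2 fold change was 0.06 ± 0.15 (SE), with an interval of 0.83 to 1.30 as a fold. Its within-group SD on the log2 scale was 0.14, smaller than that of most genes of like level, since 18.3% of the 1602 genes within 1 log2 unit had a smaller one. Its opposite-strand neighbour Tnpo3 was at 51.4 to 92.9 CPM, with the same uncertainty.

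The second role is that of the interferon-signal factors. Irf1 stood at 128.3, 136.2 and 126.7 CPM in the DMSO libraries, and at 193.4, 231.9, 187.9 and 161.6 CPM in the Pracinostat libraries. The lowest Pracinostat library, replicate 4, was above the highest DMSO library, and the DMSO libraries lay close together (coefficient of variation 3.89%, against 15% with Pracinostat). The means were 130.4 ± 5.07 CPM (SD, n = 3) and 193.7 ± 29 CPM (SD, n = 4). The log2 fold change was 0.57 ± 0.16 (SE), a fold of 1.49 with an interval from 1.17 to 1.89. With an edgeR unadjusted p of 0.00325, Irf1 ranked 51st of 15822 genes, and its adjusted p was 0.996 (0.239 with DESeq2, 0.903 with limma-voom, and 0.239 to 1.00 over 17 alternatives).

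The groups of Irf1 did not overlap under any of the 4 scalings tried. With 1 library left out, its log2 fold change ran from 0.47 without Pracinostat replicate 2 to 0.63 without Pracinostat replicate 4. Without both collagen-rich libraries it was 0.61. The opposite-strand gene model Gm17334, which overlaps Irf1, was at 0.16 to 3.09 CPM. Immediate-early genes, which sorting and dissociation also induce, summed to 10052 to 13025 CPM with DMSO and 11014 to 15344 CPM with Pracinostat. Pracinostat replicate 2 was highest and Pracinostat replicate 1 next, both in that sum and in Irf1. Pracinostat replicate 3 was below DMSO replicate 3 in the sum and above it in Irf1. The part of sorting or dissociation in the Irf1 values was not tested.

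Irf2, the antagonist, stood at 141.1, 133.7 and 113.8 CPM with DMSO and at 134.3, 154.4, 103.3 and 136.9 CPM with Pracinostat. The groups overlapped fully, with means of 129.5 ± 14.1 CPM (SD, n = 3) and 132.2 ± 21.3 CPM (SD, n = 4). Irf2 had a log2 fold change of 0.03 ± 0.17 (SE), with a fold interval of 0.789 to 1.32. Irf9, the DNA-binding subunit of ISGF3, stood at 76.3, 107.4 and 69.1 CPM with DMSO and at 93, 84.6, 84.8 and 61 CPM with Pracinostat. DMSO replicate 2 was the highest and Pracinostat replicate 4 the lowest library. The log2 fold change was -0.06 ± 0.21 (SE), with a fold interval of 0.708 to 1.30. Rnf31, a same-strand neighbour that overlaps Irf9, was at 36.5 to 71.2 CPM, so reads of the overlap are uncertain for Irf9.

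**Figure D2:**
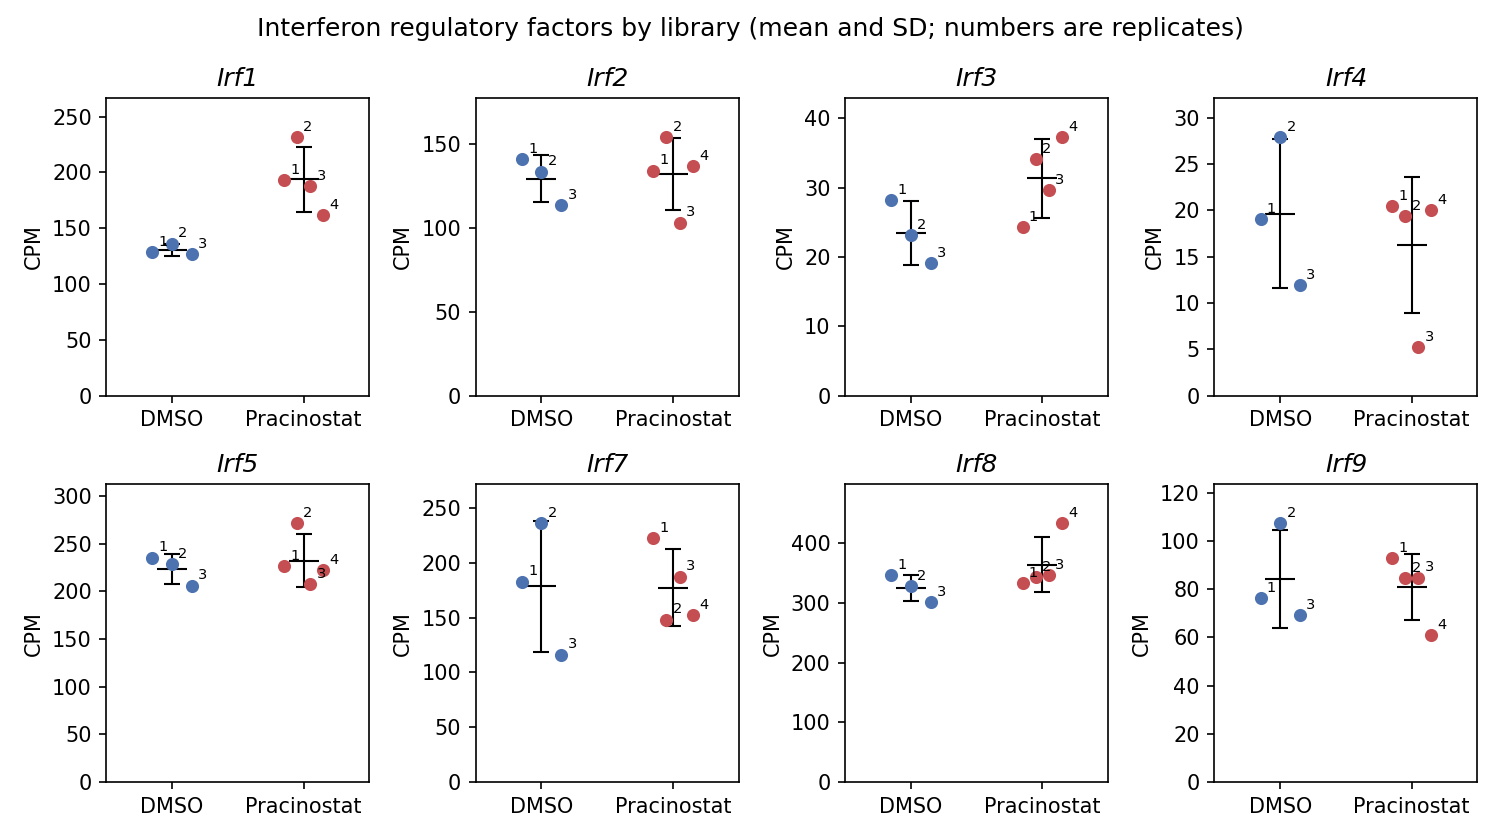
CPM of the 8 factors in each library, with mean and SD per group (DMSO n = 3, Pracinostat n = 4) and replicate numbers beside the points. Irf1 is the member whose groups do not overlap, at 126.7 to 136.2 CPM with DMSO and 161.6 to 231.9 CPM with Pracinostat, and Irf4 is lowest in Pracinostat replicate 3.

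The third role is that of the PU.1 partners. Irf8, the lineage factor of microglia and monocytes, stood at 346.4, 327.8 and 302.1 CPM with DMSO and at 333.7, 343.5, 347 and 434.1 CPM with Pracinostat. Pracinostat replicate 4 was high, and the other 6 libraries lay between 302.1 and 347 CPM. The log2 fold change was 0.16 ± 0.15 (SE) with a fold interval of 0.896 to 1.40, and it was 0.05 without Pracinostat replicate 4. Without DMSO replicate 1 the groups did not overlap, as for Irf3 and 8.37% of all genes. The same-strand gene model Gm20388 overlaps Irf8 and was not among the genes tested, so reads of the overlap are uncertain for Irf8.

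Irf4 stood at 19, 27.9 and 11.9 CPM with DMSO and at 20.4, 19.4, 5.22 and 20 CPM with Pracinostat. Pracinostat replicate 3 was lowest, and the other 3 Pracinostat libraries lay within 1.1 CPM of each other and between the lowest and highest DMSO libraries. The log2 fold change was -0.27 ± 0.44 (SE), with a fold interval of 0.429 to 1.602, and it was 0.02 without Pracinostat replicate 3 and 0.07 without DMSO replicate 2. Irf4 was the most variable member. Its within-group SD of 0.83 on the log2 scale was larger than that of 91.6% of the 3964 genes within 1 log2 unit of its level.

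The intervals show what these libraries could resolve for each member taken singly. For 7 of the 8 members the 95% interval lay inside a 2-fold change in either direction, and Irf4 was the exception. The intervals of Irf2, Irf5, Irf7, Irf8 and Irf9 also ended below a 1.5-fold increase, at 1.32, 1.30, 1.39, 1.40 and 1.30. They are not adjusted for the number of genes, and no interval shows that a gene was unaffected.

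**Figure D3:**
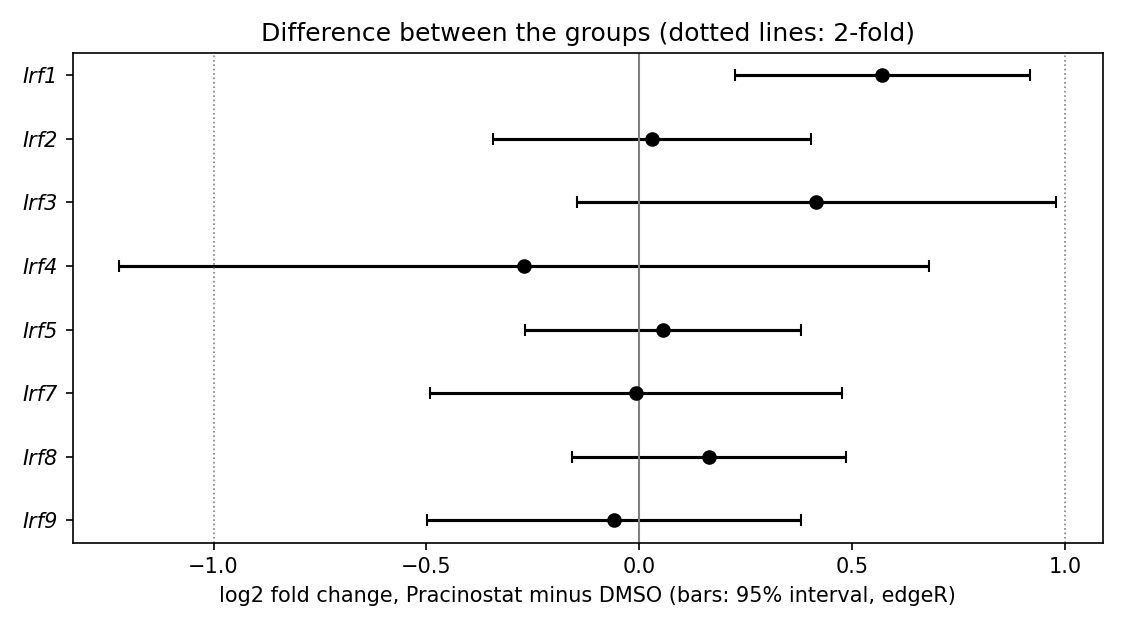
Log2 fold change (Pracinostat minus DMSO) of each factor with its 95% interval from the edgeR fit, the dotted lines marking a 2-fold change. The Irf1 interval, 0.22 to 0.92, does not reach 0 before adjustment over all genes, and the Irf4 interval is the widest.

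Ratios of members that share a partner or a site were compared within each library, which removes the scaling. They were chosen with earlier values of Irf1 known. The log2 ratio of Irf1 to Irf2 counts was -0.14, 0.03 and 0.16 in the DMSO libraries and 0.53, 0.59, 0.86 and 0.24 in the Pracinostat libraries. All 4 Pracinostat libraries were above the 3 DMSO libraries. The log2 fold change was 0.57 for Irf1 and 0.03 for Irf2, so this ratio mainly repeats the separation of Irf1. Irf1 itself was separated like 3.51% of all genes in that direction, and the share of gene pairs separated in this way was not computed. The means were 0.01 ± 0.15 (SD, n = 3) and 0.55 ± 0.26 (SD, n = 4), a difference of 0.54 (two-sided exact permutation p = 0.0571, adjusted p = 0.171 over 3 ratios). The comparison did not pass. The smallest p that the design allows is 0.0286, which could pass 0.05 after adjustment only if another of the 3 ratios also reached it.

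The ratio of Irf5 to Irf4, factors that compete for MyD88, did not separate the groups. The log2 ratio was 3.03 to 4.11 with DMSO and 3.47, 3.81, 5.31 and 3.47 with Pracinostat, a difference of 0.43 (exact permutation p = 0.629, adjusted p = 0.629). Without Pracinostat replicate 3 the difference was -0.0064. The log2 ratio of Irf8 to Irf4 was 3.55 to 4.66 with DMSO and 4.03, 4.15, 6.05 and 4.44 with Pracinostat, a difference of 0.53 (exact permutation p = 0.6, adjusted p = 0.629) that was 0.07 without Pracinostat replicate 3. Both ratios share Irf4, and Pracinostat replicate 3 is the highest library in each.

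**Figure D4:**
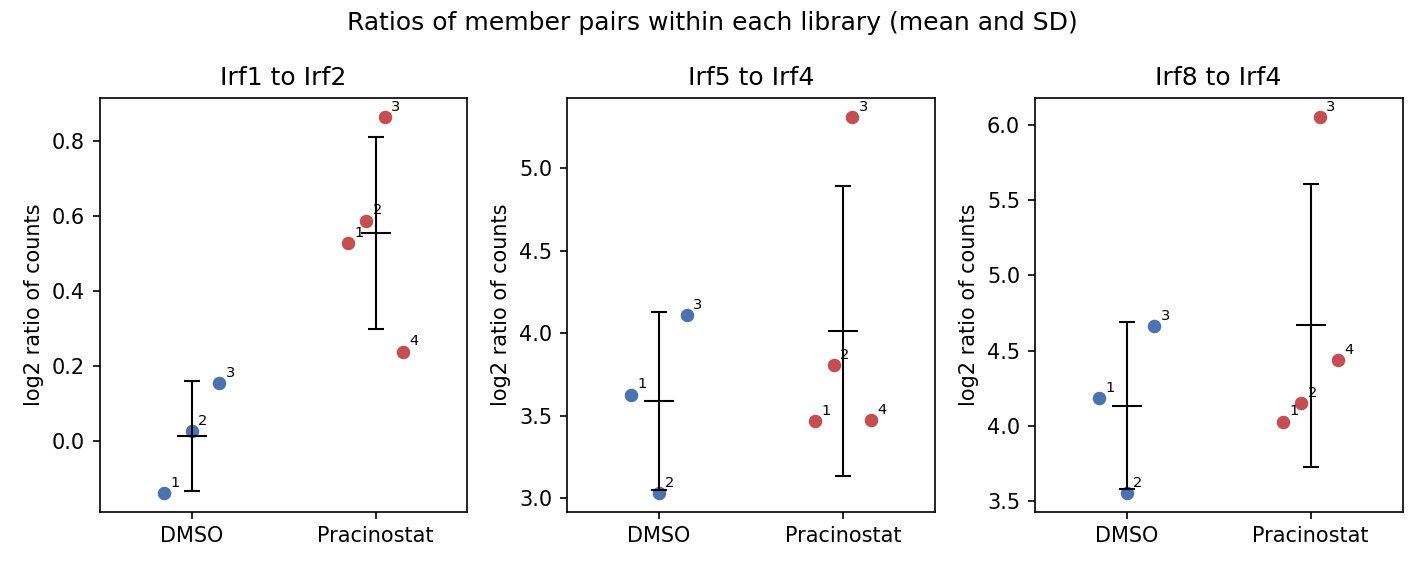
Log2 ratio of counts of 3 member pairs in each library, with mean and SD per group and replicate numbers beside the points. The Irf1 to Irf2 ratio is higher in all 4 Pracinostat libraries, and the other ratios overlap, with Pracinostat replicate 3 highest.

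The low Irf4 of Pracinostat replicate 3 went with marker lists of other cells. The markers of conventional dendritic cells, which use IRF4 or IRF8, had a median of -1.30 (log2 CPM relative to each gene's mean over the 7 libraries) in Pracinostat replicate 3 and -1.03 in DMSO replicate 3, against -0.05 to 0.89 in the other libraries. These are also the 2 libraries lowest in Irf4. In summed level the 10 markers ranged from 577.4 to 872.8 CPM with DMSO and from 723.3 to 1041 CPM with Pracinostat. Cd209a and Clec9a, markers of dendritic cell subsets, were near the floor, at 0 and 0.13 CPM in Pracinostat replicate 3 and at 0.71 and 0 CPM in DMSO replicate 3. Not every marker of the list was low there. Fscn1 was at 261.1 CPM in Pracinostat replicate 3 and 207.7 CPM in DMSO replicate 3, against 180.4 to 286.9 CPM elsewhere. Xcr1 was at 2.51 CPM in Pracinostat replicate 3, within its range in the other libraries, and at 0.52 CPM in DMSO replicate 3. Monocyte-derived macrophage markers had their lowest medians in the same libraries, -1.37 and -0.30, and ranged in sum from 6346 to 8049 CPM with DMSO and from 2366 to 10353 CPM with Pracinostat. In the sum DMSO replicate 3 was the highest DMSO library, opposite to its median.

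Many neutrophil markers were absent there too, 7 of 10 being at 0 in Pracinostat replicate 3 and 5 of 10 in DMSO replicate 3. Ly6g, at 0 in both, reached at most 0.85 CPM in any library. Mmp9 went the other way in DMSO replicate 3, at 115.8 CPM against 0 to 52.1 CPM elsewhere. The neutrophil markers summed to 392.3 to 581 CPM with DMSO and 361.4 to 606.7 CPM with Pracinostat, most of it Csf3r. B cells and plasma cells also use IRF4. Of 9 markers of these cells in the table, 5 were at 0 in each DMSO library and 2 or 3 in each Pracinostat library, among them Ms4a1, Cd79a, Pax5 and Jchain, which reached at most 0.40 CPM. The others were counted in every library, with Xbp1 at 68.3 to 123.6 CPM, Ighm at 38.1 to 62.9 CPM, Sdc1 at 4.96 to 41.6 CPM and Cd79b at 3.90 to 9.08 CPM. The list summed to 155.5 to 205.8 CPM with DMSO and 149.8 to 193.9 CPM with Pracinostat. The part of these dendritic, monocyte-derived, neutrophil and B or plasma cells in the Irf4 values was not tested.

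The genes listed as IRF4 targets were lowest in the same library by their median. That median was -1.27 in Pracinostat replicate 3 and -0.17 in DMSO replicate 3, against 0.11 to 0.64 in the rest. Single genes differed. Klf4 was at 223.3 CPM in Pracinostat replicate 3, within its range of 145.8 to 272.9 CPM elsewhere. Kdm6b, Ciita, Ccl22 and Cdh1 each had a lower library than that one. Of 12 tested, 6 had positive and 6 negative fold changes (median -0.13), 0 passed over all genes, and 1 in each direction had an unadjusted p under 0.05. Those were Ccl22, a chemokine of dendritic cells (2.59 ± 1.02), and Arg1, arginase 1 (-1.66 ± 0.66), both with overlapping groups. Ccl22 was highest in Pracinostat replicate 2, at 44.7 CPM, with 1.12 to 11.1 CPM elsewhere. The list shares Cd209a and Clec10a with the dendritic cell markers and Chil3 with the monocyte-derived markers.

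**Figure D5:**
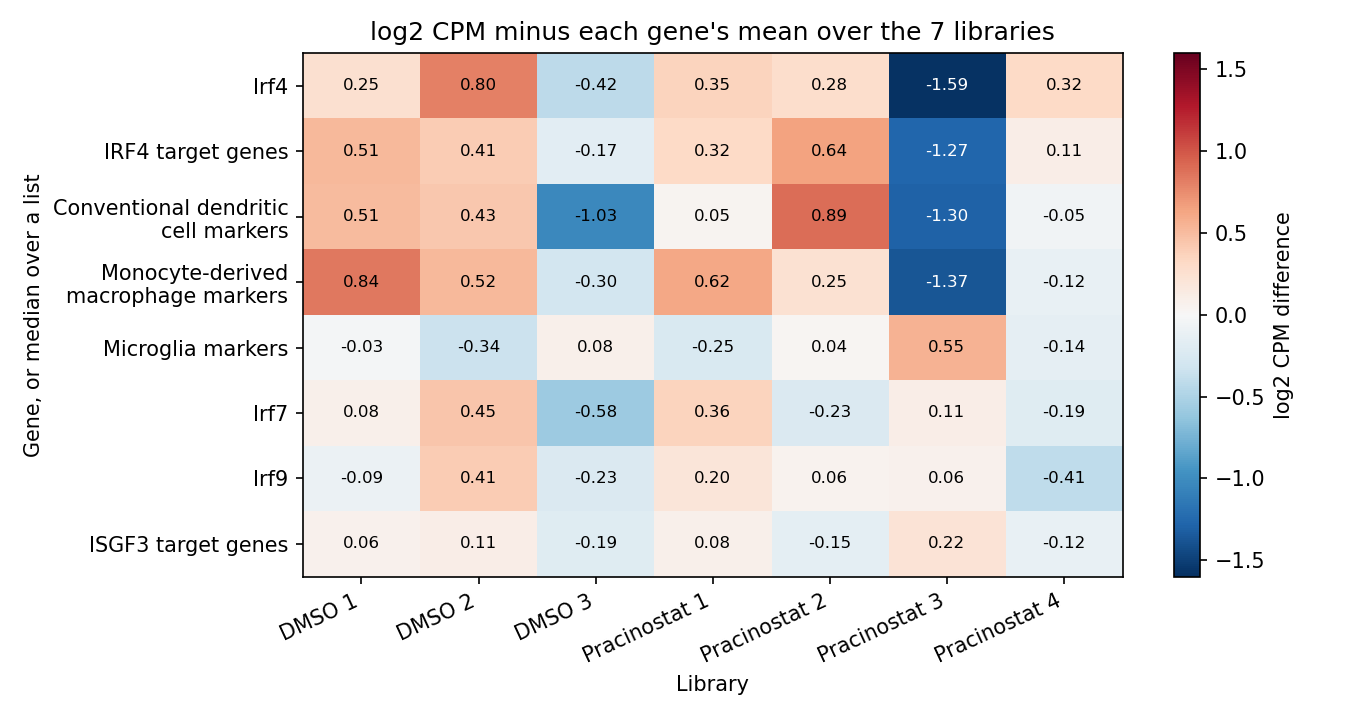
Log2 CPM minus each gene's mean over the 7 libraries, for Irf4, Irf7 and Irf9 and as the median over 5 gene lists (columns are libraries). Irf4, its target list, dendritic cell markers and monocyte-derived markers are lowest in Pracinostat replicate 3, where microglia markers are highest.

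No gene upstream of the latent factors was called. In this and the following paragraphs a value with its error in parentheses is a log2 fold change ± SE. Of the 20 adaptors, sensors and kinases that activate IRF3, IRF5 and IRF7, 11 were positive and 9 negative with a median of 0.03, and 0 had an unadjusted p under 0.05. The members with the smallest p were Cgas, the cytosolic DNA sensor (0.62 ± 0.34), and Ticam1, the adaptor of TLR3 and TLR4 (0.38 ± 0.25). Tbk1, the kinase of IRF3, stood at 83.5 ± 12.6 CPM (SD, n = 3) and 89.2 ± 10.7 CPM (SD, n = 4).

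Ifnb1, which encodes interferon beta, had 0 counts in 6 libraries, which allows up to 0.183 to 0.29 CPM in each at 3 counts, and 52 counts (3.44 CPM) in Pracinostat replicate 3. Of the other interferon genes listed (Ifng, Ifna4, Ifnk, Ifne, Ifnl2 and Ifnl3) none was analysed here. Among 17 tested receptors, kinases, STATs and regulators, 10 were positive and 7 negative with a median of 0.03. Il10rb, a receptor chain shared by IL-10 and interferon lambda, was lower in all 4 Pracinostat libraries, at 117.6 to 181.7 CPM against 201.9 to 215.3 CPM (-0.46 ± 0.17, unadjusted p = 0.0157, adjusted p = 1.00 by edgeR). Socs3, the feedback inhibitor of STAT3, was at 0.29 ± 0.16. Stat2, whose product is a partner of IRF9, was at 0.18 ± 0.19 and was highest in Pracinostat replicate 3 (154.1 CPM).

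No target of ISGF3 was called. Of 35 tested, 19 were positive and 16 negative with a median of 0.01, close to the 0.02 of all genes, and 0 had an unadjusted p under 0.05. Xaf1 (0.45 ± 0.27) and Ifi35 (0.38 ± 0.23) had the smallest p, and both were higher in all Pracinostat libraries. The median of the ISGF3 targets, centred on each gene's mean, was lowest in DMSO replicate 3 (-0.19), Pracinostat replicate 2 (-0.15) and Pracinostat replicate 4 (-0.12). These are also the 3 lowest libraries for Irf7, in the same order. The list median was highest in Pracinostat replicate 3 (0.22), where Ifnb1 was counted, but Irf7 there (0.11) was below DMSO replicate 2 (0.45) and Pracinostat replicate 1 (0.36). Irf7 is itself an interferon-stimulated gene. Irf9, the ISGF3 subunit, did not share this order. It was lowest in Pracinostat replicate 4 (-0.41), DMSO replicate 3 (-0.23) and DMSO replicate 1 (-0.09), and stood at 0.06 in Pracinostat replicate 2.

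Irf7 and Irf9 were also close to each other, with a root mean square difference of 0.21 between their centred log2 CPM over the 7 libraries. Irf2 and Irf5 were the closest pair of the family at 0.09. Irf8 was also nearer to Irf5 (0.18), Irf2 (0.20) and Irf3 (0.20) than Irf7 was to Irf9. Irf4 stood at least 0.58 from every other member. Plasmacytoid dendritic cells hold much IRF7. Their 9 markers in the table summed to 369.3 to 463.6 CPM with DMSO and 390.6 to 446.3 CPM with Pracinostat, mostly from Tcf4, Siglech and Bst2, of which Siglech is also in the microglia list and Bst2 among the ISGF3 targets. Runx2 was at 5.29 to 40.0 CPM, Pacsin1 at 5.50 to 10.9 CPM and Cox6a2 at 3.04 to 11.5 CPM. Spib was at 0.46 to 3.75 CPM, Ccr9 at 0 to 2.38 CPM and Klk1 at 0 to 0.14 CPM. The part of these cells in the Irf7 values was not tested.

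Targets of IRF1 were mixed although Irf1 was separated between the groups. Of 30 tested, 16 were positive and 14 negative and the median was 0.05. None of the 30 was called by edgeR, and 3 higher and 2 lower had an unadjusted p under 0.05. Cxcl10, the chemokine for CXCR3, was at 37.9 to 58 CPM with DMSO and at 86, 72.7, 185.2 and 81.8 CPM with Pracinostat (1.24 ± 0.33, unadjusted p = 0.00323, adjusted p = 0.996). The interferon-inducible GTPase Igtp was at 13.4 to 14.4 CPM with DMSO and 18.2 to 36.6 CPM with Pracinostat (0.84 ± 0.32). For both genes the groups did not overlap and Pracinostat replicate 3 was highest, while Irf1 was highest in Pracinostat replicate 2.

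Beside those 2 genes, named after their values were seen, the GTPase Gbp5 (0.62 ± 0.26) was positive, and Gbp3 (-0.73 ± 0.33) and inducible nitric oxide synthase Nos2 (-1.41 ± 0.54) were negative at an unadjusted p under 0.05.

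Inflammatory targets of IRF5 were the list farthest from the background. Of 13 tested, 11 were positive, with a median of 0.80 against 0.02 over all genes, while Irf5 itself was at 0.06. By library, the median of the list's centred log2 CPM was high in Pracinostat replicates 1 and 2 alone, at 0.58 and 0.61. It was -0.21 and 0.10 in Pracinostat replicates 3 and 4, and 0.07, -0.27 and -0.06 in DMSO replicates 1 to 3. The immediate-early genes were also highest in Pracinostat replicates 1 and 2, with medians of 0.25 and 0.31 against -0.27 to 0.14 elsewhere, and their part in these values was not tested. None of the 13 was called by edgeR, 4 had an unadjusted p under 0.05, all higher, and DESeq2 called 1, Il1a. Il1a, the cytokine interleukin 1 alpha, was at 73 to 168.2 CPM with DMSO and 244.1 to 441.8 CPM with Pracinostat (1.51 ± 0.35, DESeq2 adjusted p = 0.00106). Tnf was at 313.5 to 597.2 CPM and 507.2 to 1011 CPM (0.94 ± 0.27), with overlapping groups. The others, named after their values were seen, were the chemokine Ccl3 (0.40 ± 0.18) and Il23a (4.23 ± 1.64). The groups of Ccl3 nearly touched, at 231.9 to 424.1 CPM with DMSO and 425.3 to 454.0 CPM with Pracinostat. Il23a was at 0 to 0.84 CPM with DMSO and reached 10.4 and 10.7 CPM in Pracinostat replicates 1 and 2. These genes are also targets of NF-kappaB, and the list was drawn up with the higher inflammatory genes of these samples known, so it is no independent evidence of that direction.

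Targets of IRF8, among them microglial genes and subunits of the phagocyte oxidase, had 14 of 20 positive with a median of 0.10, and 0 had an unadjusted p under 0.05. Cst3, the protease inhibitor cystatin C (0.44 ± 0.21), and the microglial membrane protein gene Tmem119 (0.54 ± 0.27) had the smallest p. Cybb, an oxidase subunit gene, was at -0.10. Microglia markers, which share Tmem119, P2ry12, Sall1 and Cx3cr1 with this list, summed to 3996 to 5341 CPM with DMSO and 4664 to 7676 CPM with Pracinostat.

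Among partners and cofactors 15 of 22 were positive, with a median of 0.06, and 0 had an unadjusted p under 0.05. Spi1, the PU.1 gene, was at 202.7 ± 26.6 CPM (SD, n = 3) and 209.3 ± 25.4 CPM (SD, n = 4). The corepressor gene Irf2bp2 was at 384.9 ± 31.9 and 390 ± 71.1 CPM. Nfkb1, the NF-kappaB p50 precursor gene, was higher in all Pracinostat libraries (209.9 to 246.3 CPM against 183.8 to 190.3 CPM; 0.24 ± 0.14), and Rbck1, a subunit of the linear ubiquitin ligase, was lower in all of them (-0.33 ± 0.18). Batf3, the AP-1 partner of IRF8 in dendritic cells, was at 0.61 to 6.48 CPM. Over the 8 lists, 163 genes were tested once each, and 7.36% had an unadjusted p under 0.05, 8 higher and 4 lower, against 4.18% of all genes. Of the 8 higher genes, 4 came from the IRF5 list, which was drawn up with the higher inflammatory genes of these samples known. The pooled share is therefore no independent evidence of an excess over all genes.

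The genes closest to each member in profile were found by the root mean square difference of centred log2 CPM over the 7 libraries, among 9948 named genes. For Irf1 they were Orai2 (0.08), which encodes a calcium channel subunit, and Procr (0.09), the protein C receptor gene. For Irf4 they were Zbtb42 (0.14) and Mapkapk3 (0.17), for Irf7 Timm8b (0.07) and Sord (0.09), and for Irf8 Pde12 (0.05). For Irf2 they were Syngr2 and Golph3 (both 0.06), for Irf3 Gtf2e1 (0.08) and Hic2 (0.09), for Irf5 Sdf4 (0.04) and Pip4k2a (0.05), and for Irf9 Iws1 (0.07) and Trappc8 (0.09). These likenesses are descriptions over 7 libraries and were not tested.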

How the data were processed

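Counts of mouse genes in 7 RNA libraries (3 DMSO, 4 Pracinostat) were used. Per the labels' protocols, libraries were made from 1 ng of total RNA with a stranded kit and sequenced as 150-base pairs over 2 lanes. STAR and RSEM, with Trim Galore for trimming, are named without versions in the submitters' processing notes, as is build GRCm39. For the annotation and the strand setting, nothing is given in the sources used here. The authors deposited expected counts for each gene symbol, stored as whole numbers and not normalized.

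Groups were compared with edgeR 4.0.16 in R 4.3.3 (TMM, filterByExpr with a minimum count of 10, robust quasi-likelihood fit, two-sided), with Benjamini-Hochberg adjustment over 15822 genes and a threshold of 0.05. Standard errors are the log2 fold change divided by the root of the F statistic, and intervals are 95%. CPM use TMM-scaled library sizes, and centred values use log2 CPM with a prior count of 2. Ratios were compared by a two-sided exact permutation test over 35 arrangements. DESeq2 1.42.0 and limma-voom (limma 3.58.1) were alternatives. The code was tested on simulated data. No library pair agreed within sampling noise (the lowest chi-square divided by its degrees of freedom was 32.3).

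The 8 members and the gene lists were chosen with earlier results of these data known. Named genes were the members, from each list the 2 genes of smallest p among those whose mean log2 CPM was 2 or more, 10 genes fixed by name, and the 2 closest profiles of each member. Promoters are from RefSeq (GRCm38.p6; all 8 members matched). Some genes that this rule names are not reported here.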

Additional observations from a re-analysis of the deposited data

Results flagged for a closer look

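In the 4 Pracinostat libraries, a library was singled out where Dixon's ratio, the gap to its neighbour over the whole range, passed its 95% limit. Chance does this in about 1 in 20 groups, groups of 3 were not screened, and 50 values were screened, of which 8 passed. The 50 values are not independent, so their count cannot be set against that rate. Genes of closest profile, such as Procr for Irf1 and Trappc8 for Irf9, were picked to follow a member. Nfkb1, Il1a and Cxcl10 were named for a small p in their lists. Irf4 stood alone in Pracinostat replicate 3 with 5.22 CPM, the values being 19.4 to 20.4 CPM in the other Pracinostat libraries and 11.9 to 27.9 CPM with DMSO. Zbtb42, the gene closest to Irf4 in profile and so not independent of it, was at 2.65 CPM there against 9.13 to 9.67 CPM. In the same library Cxcl10 was at 185.2 CPM, against 72.7 to 86 CPM. Pracinostat replicate 4 had 434.1 CPM of Irf8, compared with 333.7 to 347 CPM in the others and 302.1 to 346.4 CPM with DMSO. It also had 78.6 CPM of Trappc8, compared with 101.2 to 105.4 CPM. Pracinostat replicate 2 was highest for Nfkb1 (246.3 CPM against 209.9 to 211.9 CPM), Il1a (441.8 CPM against 244.1 to 274.1 CPM) and Procr (17.6 CPM against 13.3 to 14 CPM).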

How the results depend on the processing

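The count of 0 called members held in all 17 alternatives, which were other scalings, filters, tools, a threshold of 0.10, each library left out, the replicate block and the removal of both collagen-rich libraries (the last chosen after seeing the data). Over all genes the count of 0 became 63 with no low-count filter, 27 with DESeq2 and 4 with the replicate block, and 0 to 3 when 1 library was left out, the 3 being without DMSO replicate 3. Irf1, Irf3 and Irf8 kept a positive fold change in every alternative. Of 136 member fold changes 18 turned sign, none beyond 0.25 in size and none called, and the cause was not tested. The threshold of 0.10 reused the main fit, so its member fold changes could not turn sign. Irf2 was at -0.056 without DMSO replicate 3, -0.06 without Pracinostat replicate 2, -0.0017 without Pracinostat replicate 4 and -0.016 with the replicate block. Irf4 was at 0.071 without DMSO replicate 2 and 0.02 without Pracinostat replicate 3. Irf5 was at -0.031 without Pracinostat replicate 2. Irf7 was at 0.049 with limma-voom, 0.01 without DMSO replicate 1, 0.25 without DMSO replicate 2, 0.07 without Pracinostat replicate 2, 0.04 without Pracinostat replicate 4, 0.087 with the replicate block and 0.13 without both collagen-rich libraries. Irf9 was at 0.15 without DMSO replicate 2, 0.04 without Pracinostat replicate 4, 0.064 with the replicate block and 0.087 without both collagen-rich libraries. The other end of the range with 1 library left out was 0.13 for Irf2 and 0.11 for Irf5 (both without Pracinostat replicate 3), and -0.53 for Irf4, -0.24 for Irf7 and -0.18 for Irf9 (all without DMSO replicate 3). With 1 library left out, the difference in the log2 ratio ran from 0.44 to 0.64 for Irf1 to Irf2 (adjusted p from 0.2 to 0.4), from -0.0064 to 0.69 for Irf5 to Irf4 and from 0.07 to 0.80 for Irf8 to Irf4. In the replicate block, which leaves out Pracinostat replicate 4, these were 0.64, 0.61 and 0.61. The labels do not say that equal numbers mark paired samples, and deviations of same-numbered libraries correlated at 0.04, -0.04 and 0.07, so pairing was not seen. With 3 and 4 libraries, and Irf4 at 79 to 349 counts, small changes of single members were not detectable at this depth and spread.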
